A study of Mus musculus with 4 samples.

Results

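The measurements described here are those of untreated mouse prostate basal spheres set against a universal mouse reference RNA. They come from the 2 arrays of vehicle-treated spheres among the 4 arrays of the series, chosen by their treatment label. Basal cells were sorted by flow cytometry from the prostates of adult FVB mice and grown in a prostate sphere assay, in medium with the solvent DMSO that was changed every 24 h. The other 2 arrays carried spheres given DAPT, an inhibitor of γ-secretase, at 5 µM. The labels name no genetic change in any group and do not say whether the 2 vehicle arrays came from separate cultures or animals, so the spread between them may be technical. On each array the sphere RNA was in the red dye and the reference, a commercial RNA pool (Stratagene Universal Mouse Reference RNA), was in the green dye. Of 41174 probes on the array, 32181 were called well above background by the scanner software on both vehicle arrays, in the red or green channel. They stood for 26114 genes, 15376 of which had a name. The other 10738 were probes without a name, each counted as a gene of its own.

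Basal cells form the outer layer of prostate ducts, rest on the basement membrane and carry the keratins Krt5 and Krt14 and the transcription factor p63. Luminal cells line the lumen, carry Krt8 and Krt18 and, in the adult gland, secrete prostatic proteins under androgen control. In the sphere assay single cells grow out in a gel rich in basement membrane proteins. The reference pool stands for many cell types at once, so a high ratio marks a gene that takes a larger share of the sphere RNA than of that pool, and a ratio near 0 does not mean that a gene is absent.

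Each value is the log2 ratio of sphere over reference after background correction and loess normalization within the array, and it is written as the value on array 1 and array 2, or as the mean ± SD (n = 2). Over all genes the 2 arrays correlated at 0.914, their values differed by a median of 0.209, and the median ratio was -0.10. Red was the dim channel, with a median spot 1.94 and 1.82 times its local background, against 12.5 and 11.5 times in green. The reference was in the same dye on both arrays, so a dye effect on a gene and a difference between the RNAs cannot be told apart, and only large ratios were weighed. A gene is called detected in a channel where the scanner software put its probe well above background. Each gene was tested with limma against a difference of 2-fold, with a Benjamini-Hochberg adjusted p under 0.05 as the threshold for a call. The fit gave every gene the same standard error of 0.17, so a call came down to the mean ratio: the smallest called size was 1.47 and the largest not called was also 1.47. For that reason the values of both arrays are given below in place of p-values. The alternative settings described below were fitted with spreads of their own. The ratio needed for a call could therefore differ there and lie above 1.47.

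Spheres had more genes far above the reference than far below it under the main normalization. Of the 26114 genes, 1088 were called higher in spheres (4.17%) and 381 lower (1.46%), together 5.63%. These shares are the background for each count of called list or family members given below. Of the called genes, 1454 lay past 2-fold in the same direction on both arrays, and the median size of their ratio was 1.99. The 2 sides of the split moved with the scaling. The calls were 74.1% higher ones under loess, 48.7% with the scanner software's processed signals (853 higher, 897 lower) and 28.9% when each array was only centred on its median (464 higher, 1141 lower). Those scalings move the median of all genes as well, to -0.34 under median centring and to -1.52 with no normalization, where 137 genes were higher and 14645 lower. What follows is therefore relative to the bulk of the genes on the array, and calls close to 1.47 depend on the scaling.

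**Figure D1:**
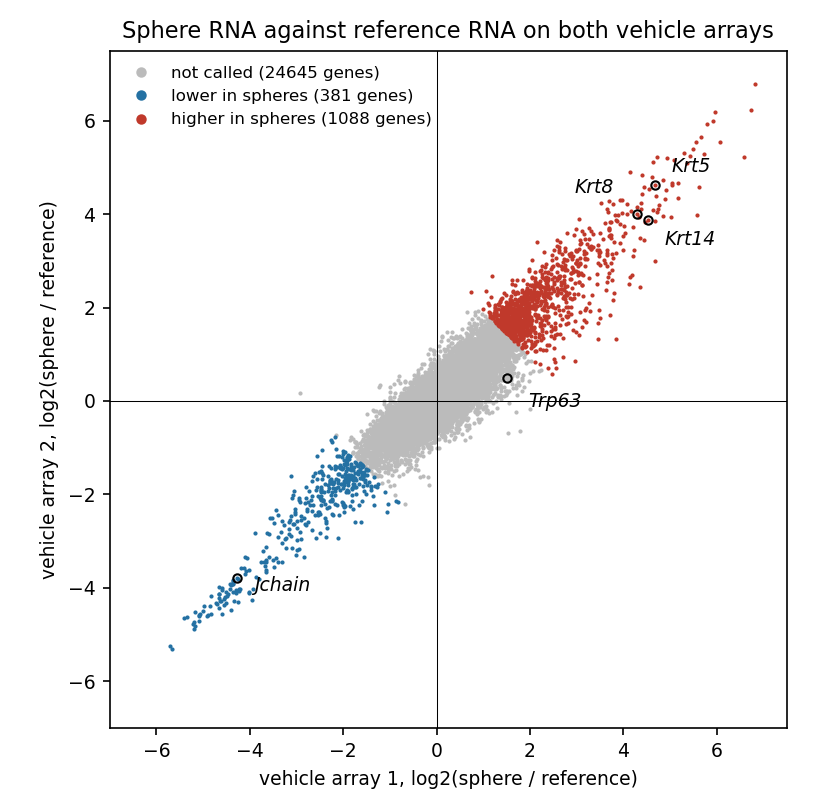
Log2 ratio of sphere over reference RNA for each of 26114 genes on vehicle array 1 (x axis) and vehicle array 2 (y axis), with genes called higher in red, lower in blue and not called in grey. The called genes lie along the diagonal, Krt5, Krt8 and Krt14 lie at 3.88 or above on both arrays, and Trp63, at 1.51 and 0.49, lies among the genes not called.

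The keratins that define the sorted cell type were high. Krt5, the main basal keratin, stood at 4.67 and 4.63, a mean of 4.65 ± 0.03 (25.1-fold). Its spots read 53590 and 23025.5 intensity units in red and 6898 and 3664.5 in green before normalization, so the raw brightness differed more between the arrays than the ratio did. Krt14, its partner keratin, stood at 4.52 and 3.88 (4.20 ± 0.46, 18.4-fold). Krt8, a keratin of luminal cells, stood at 4.30 and 3.997 (4.15 ± 0.21, 17.7-fold), close to Krt14. All 3 keratins were far above the reference on both arrays.

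Trp63, which encodes p63, was the marker that did not pass. The brighter of its 2 kept probes gave 1.51 and 0.49, a mean of 1.00 ± 0.72, and its red spots were dim at 140.5 and 177 intensity units. In green that probe was well above background on 1 of the 2 arrays, with 66 and 415 units. The other Trp63 probe gave 2.15 and 1.96, a mean of 2.05, so the call rests on which probe is taken. The mean of both probes, 1.53, passed the threshold (adjusted p = 0.0125, limma). With no normalization the main probe's mean was -0.39. The main probe was detected in the spheres on both arrays, so p63 message was seen, while its level over the reference differed with the probe.

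Of 22 tested genes of a basal marker list, 16 were called higher and 0 lower, with a median of 2.82 against -0.10 over all genes. All 22 were detected in the spheres on both arrays. Perp, a desmosome-associated target of p63, stood at 5.91 and 5.998. Krt15, a keratin of basal and stem-like epithelial cells, stood at 5.29 and 5.30. Both were further from the reference than Krt5. Cd44, the hyaluronan receptor, stood at 4.54 ± 0.22 (2.18 and 2.81 on its other probes), Col17a1, a hemidesmosomal collagen, at 3.03 ± 0.53 and Dsg3, a basal desmosomal cadherin, at 3.01 ± 0.02. The 6 that did not pass were Trp63, Snai2 (0.92 ± 0.08), Cdh3 (0.86 ± 0.90), Egfr (0.75 ± 0.90), Dst (-0.03 ± 0.03) and Ngfr (-0.18 ± 0.02). Cdh3 (1.49 and 0.22) and Egfr (1.38 and 0.11) differed widely between the arrays. The count was 6 of the 10 basal genes still tested with marked spots left out, and 8 higher and 2 lower with no normalization. Over the other alternatives that kept the 2-fold test and 1 value a gene it ranged from 12 to 17.

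Keratins as a family were divided. The family was looked at after its values had been seen, and 14 of 38 tested keratin genes were higher and 0 lower. Besides Krt5, Krt14, Krt15 and Krt8 the higher ones were Krt23 (5.80 ± 0.37), Krt19 (5.66 ± 0.01), Krt13 (5.33 ± 0.13), Krt6a (4.83 ± 0.30), Krt6b (4.36 ± 0.40), Krt7 (4.24 ± 0.19), Krt4 (2.92 ± 0.31), Krt18 (2.91 ± 0.27), Krt87 (2.75 ± 0.62) and Krt17 (2.62 ± 0.47). They include keratins of basal layers, of simple epithelium and of stratified mucosa, and Krt87, a hair keratin. For Krt23 the reference was detected on 1 array. The other 24 lay between -0.92 and 1.39, below the smallest called ratio, and the epidermal keratins Krt1, Krt2 and Krt10 were among them. Krt6a and Krt6b are close copies of each other, so their probes may share signal.

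**Figure D2:**
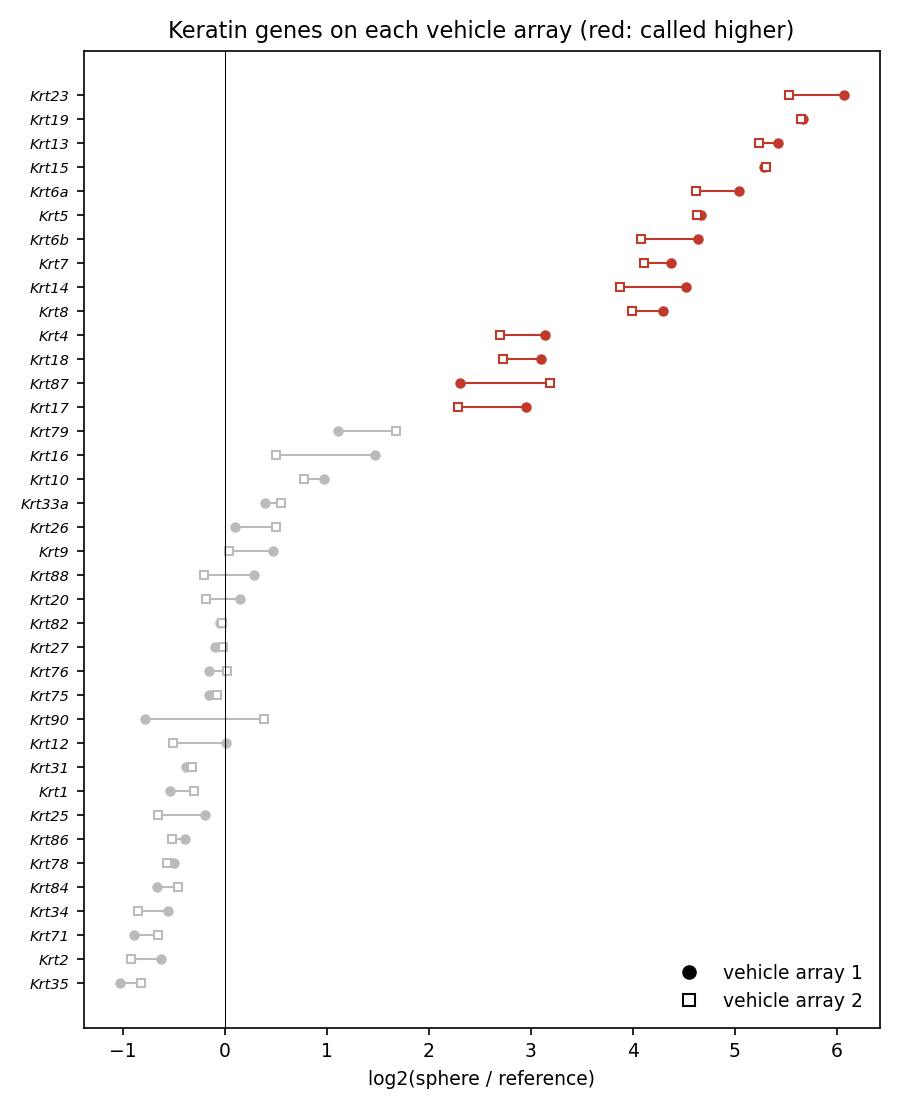
Log2 ratio of sphere over reference RNA (x axis) of the 38 tested keratin genes, ordered by their mean, with array 1 as circles and array 2 as squares joined by a line. The 14 genes called higher, in red, lie at or above 2.28 on both arrays, and a gap separates them from Krt79, Krt16, Krt10 and the rest.

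Luminal keratins were high, and some secretory products of the gland were not seen while others were. Of 18 tested genes of the luminal and secretory list, 10 were higher and 0 lower, with a median of 1.96. Clu, the secreted chaperone clusterin, stood at 5.96 and 6.18, and Krt19 at 5.67 and 5.65. Cd24a, a surface protein of luminal cells, stood at 4.12 ± 0.26 and Tmprss2, a serine protease regulated by androgen in the prostate, at 3.88 ± 0.19. Foxa1, a transcription factor that opens closed chromatin, stood at 3.64 and 3.17. These 5 genes were well over the reference on both arrays.

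Other luminal genes were level with the reference or not seen in the spheres. Hoxb13, a homeobox factor of the prostate, stood at 0.45 and 0.42. Psca, prostate stem cell antigen, stood at 1.18 and 1.21, above the reference but under the threshold. Tgm4 and Msmb, which encode secreted proteins of the prostate, were not well above background in the spheres on either array. Pbsn (probasin) and Sbp, both secretory products of the rodent prostate, were not well above background in either channel and were not tested. Acpp, which encodes prostatic acid phosphatase, was in no list and was looked at after its values had been seen. It was called higher on both of its probes, at means of 1.60 and 1.89. The list depends on bright probes that the scanner software marked as uneven or as outliers. With marked spots left out 7 of its genes were tested, 1 of them was higher and the median was -0.27. With no normalization 7 were higher and 3 lower.

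A second group of keratins and cornified proteins belongs to squamous epithelium. Of 23 tested genes of the squamous list, 8 were higher and 0 lower, with a median of 0.67. Besides Krt13, Krt6a, Krt6b and Krt4 they were Sprr1a, a small proline-rich envelope protein (3.70 and 3.67), Lgals7, a galectin of stratified epithelium (3.22 ± 0.19), Ivl, the envelope protein involucrin (2.64 ± 0.41), and Ppl, periplakin (2.49 ± 0.17). Several other genes of epidermal differentiation did not pass. Krt10 stood at 0.87 ± 0.14 and Lor, loricrin, at 0.16 ± 0.16, and Krt1 was not well above background in the spheres.

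Cell junction genes had the largest share of higher calls among the 30 lists used. Of 21 tested, 17 were higher and 0 lower, with a median of 2.59, and all 21 were detected in the spheres. Cdh1, the epithelial cadherin, stood at 3.16 and 3.22, and Epcam, an epithelial adhesion molecule, at 3.52 and 4.24. Desmosome genes were high, with Pkp1 at 4.94 and 5.20, Jup (plakoglobin) at 3.70 ± 0.15 and Pkp3 at 3.60 ± 0.27. Of the tight junction claudins, Cldn1 stood at 4.72 and 5.21 (mean 2.51 on its other probe), Cldn4 at 4.79 ± 0.08 and Cldn7 at 4.51 ± 0.10. Cldn3 stood at 4.68 and 3.00, the widest gap between arrays among these. Those not called included Gjb5 (0.38 ± 0.73), Tjp3 (0.17 ± 0.11) and Pkp2 (-0.36 ± 0.03).

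The matrix receptors and laminins of a basal cell were higher as well. Of 19 tested, 11 were higher and 0 lower, with a median of 1.99. They included Lamb3, a laminin chain of the epithelial basement membrane (3.97 and 4.30), and Itgb4, the laminin receptor subunit of hemidesmosomes (4.47 and 3.84). Itgb6, an epithelial integrin subunit that binds latent TGF-β, stood at 3.64 ± 0.11 (1.99 and 3.65 on its other probes), Itga3 at 3.33 ± 0.22 (2.30 and 2.50 on its other probes) and Itga6, the partner of Itgb4, at 3.16 ± 0.15. Lamb2 (-0.04 ± 0.00) and Lamb1 (0.52 ± 0.16), chains of other laminins, were not called. The list holds 7 genes that are also in the basal list.

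Among transcription and splicing factors of epithelium, 7 of 17 tested were higher and 0 lower, with a median of 1.12. Esrp1, a splicing regulator of epithelial cells, stood at 4.22 and 3.11, Klf5 at 2.88 ± 0.15, Zfp750 at 2.65 ± 0.52 and Grhl1 at 3.08 and 1.90 (mean 1.53 on its other probe). Gata3 (1.23 ± 0.08), Sox9 (1.12 ± 0.20) and Tfap2a (0.00 ± 0.08) were not called. Factors far above the reference thus stood beside others short of the threshold, of which Tfap2a was level with the reference.

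Positional genes of the urogenital tract passed in part. Of 15 tested homeobox and lineage factors, 3 were higher, against 4.17% over all genes, and 0 lower, with a median of 0.72. Besides Foxa1 these were Hoxa11 (1.73 and 1.96) and Hoxd10 (1.74 and 1.64), and median centring put them below the threshold, at 1.30 and 1.47. Hoxd10 also missed it without replicate 1 (1.64). Here and below, a fit without 1 vehicle array takes its spread from the 2 DAPT arrays and assumes that the lone vehicle array varies like them. Hoxa10 (1.41 ± 0.16), Hoxa13 (-0.69 ± 0.18) and Hoxd13 (0.00 ± 0.49) were not called.

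Enzymes of retinoid and xenobiotic metabolism were a further high group. Of 18 tested, 11 were higher and 1 lower, with a median of 1.90. Aldh1a3, which makes retinoic acid, stood at 6.58 and 5.22, and Adh1, an alcohol dehydrogenase that also oxidizes retinol, at 5.57 and 3.98. Cyp2f2, a cytochrome P450 known from airway and liver, stood at 5.18 and 4.67, and Cbr2, a carbonyl reductase, at 4.90 and 4.33. Array 1 was higher on these probes of all 4, but the other Adh1 probe gave 2.33 and 2.80. Gsto1, a glutathione transferase, stood at 3.08 ± 0.52. Aldh1a1, a related retinaldehyde dehydrogenase, was not called, at -0.59 and -0.88. Crabp1, a retinoic acid binding protein, was the lower one, at -2.30 and -1.39, whereas its relative Crabp2 was higher at 1.74 ± 0.37.

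Of 14 tested epithelial proteases and inhibitors, 5 were higher and 0 lower, with a median of 0.35. They included Serpinb5, the serpin maspin (4.38 ± 0.48), St14, the membrane protease matriptase (3.35 ± 0.21), Tmprss4 (2.52 ± 0.36) and Spint1, a matriptase inhibitor. Spint1 stood at 2.53 and 0.84 and was not called on array 2 alone, and with no normalization its mean was -0.12, whereas its other probe gave 4.33 and 3.08. Prss8 (1.30 ± 0.53), the protease prostasin, did not pass.

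Growth factor genes were higher in part. Of 21 tested, 5 were higher and 0 lower, with a median of 0.66. They were Edn1, the peptide endothelin-1 (3.82 and 3.99), Inhba, a subunit of activin (3.62 ± 0.17), Fgfbp1, which releases FGFs from matrix (2.75 ± 0.25), Areg, the EGF receptor ligand amphiregulin (2.11 and 2.77), and Erbb3, an EGF receptor family member (1.54 ± 0.21). Erbb3 lost its call without replicate 1 (1.40) and under median centring (0.92), and its other probes gave 0.67, 1.28 and 2.66. The other EGF receptor ligands tested, Tgfa (0.74 ± 0.20), Hbegf (0.23 ± 0.32), Ereg (0.19 ± 0.07), Epgn (0.05 ± 0.03) and Btc (-0.01 ± 0.16), were not called.

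Of 18 tested epithelial cytokines and chemokines, 5 were higher and 0 lower, with a median of 0.95. They were Cxcl15 (3.28 ± 0.66) and Cxcl5 (2.66 ± 0.01), both chemokines that attract neutrophils, Il33, an alarmin (2.93 ± 0.43), Cxcl16 (2.32 ± 0.01, and 3.21 on its other probe) and Cxcl2. For Cxcl2 the reference was not well above background, so its mean was at least 3.25-fold higher, and it missed the threshold without replicate 1. For Cxcl15 the reference was detected on 1 array, and its other probe, detected in both channels, gave 0.15. Of 16 tested defence genes, 3 were higher and 1 lower, with a median of 0.18. Wfdc2, a secreted whey acidic protein family member, stood at 5.55 and 5.55 and Defb1, a β-defensin, at 2.35 ± 0.18. Lcn2, an iron-scavenging lipocalin, stood at 1.54 ± 0.24 and missed the threshold without replicate 1 (1.37) and under median centring (1.17). Pigr, the polymeric immunoglobulin receptor, was the lower one, at -4.55 and -4.38.

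**Figure D3:**
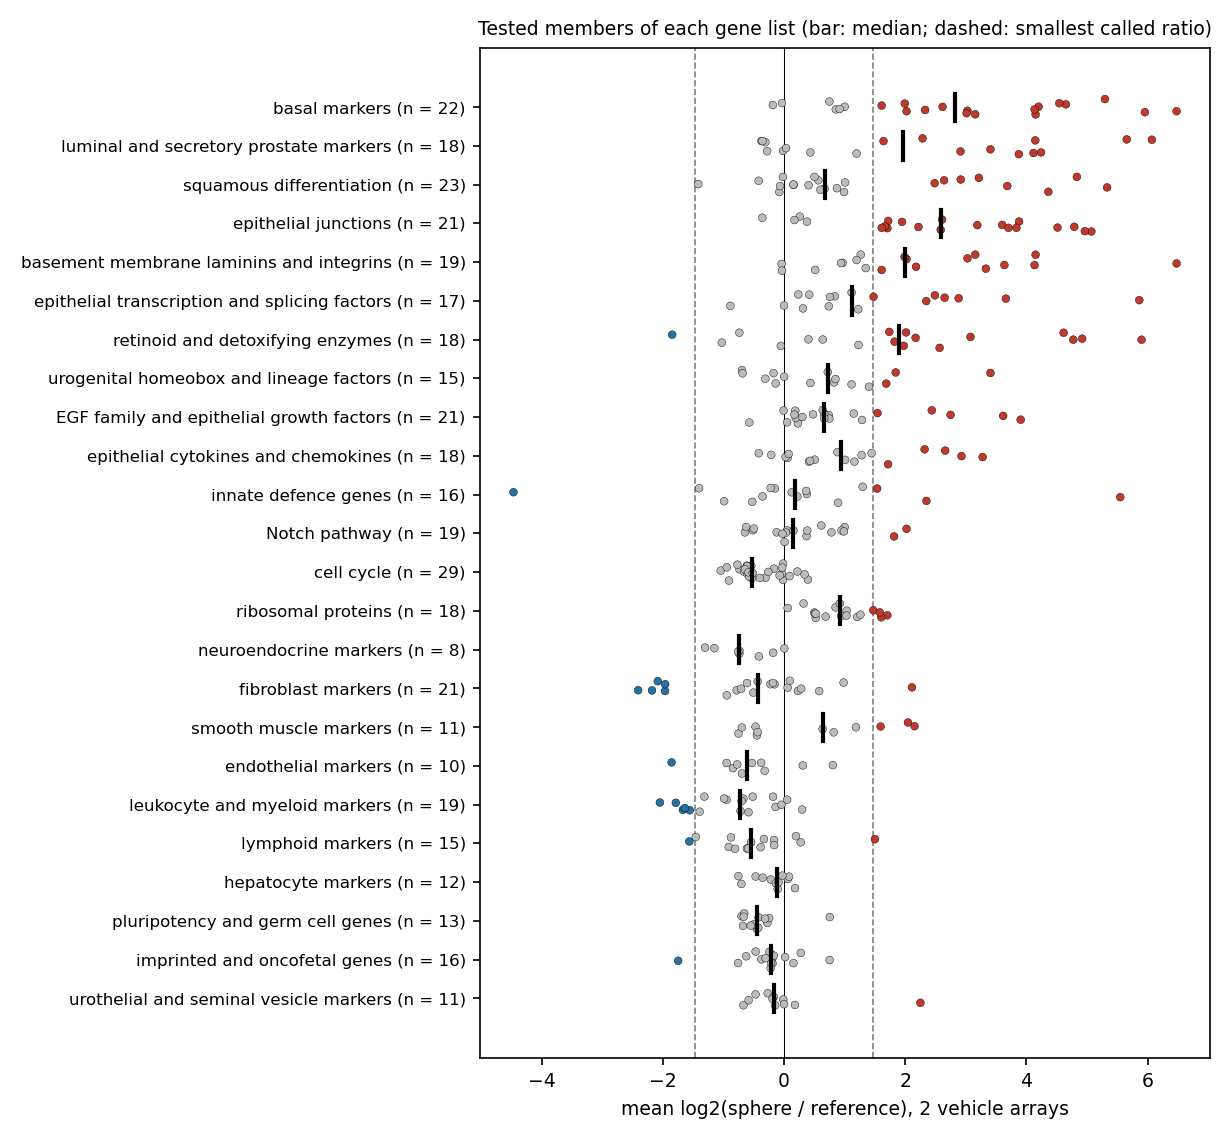
Mean log2 ratio of sphere over reference RNA (x axis) over the 2 vehicle arrays for the tested members of 24 gene lists, 1 point a gene, red for higher, blue for lower and grey for not called, with a bar at each list's median and dashed lines at the smallest called ratio. Basal markers and epithelial junctions have the rightmost medians, at 2.82 and 2.59, and the neuroendocrine and leukocyte lists the leftmost, at -0.74 and -0.72.

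By the rule of the largest ratio with both channels well above background, the highest named genes shown here, 14 in all, ran from 4.85 to 6.07. Those not yet described were Ctla2a, a cathepsin inhibitor (5.72 and 5.28), Mmp7, the epithelial metalloproteinase matrilysin (5.36 and 5.09), Mgp, matrix Gla protein (4.64 and 5.12), and Serinc2 (5.04 and 4.66). All 14 were high on both arrays, and the widest SD among them was 0.96, for Aldh1a3. In 27 called genes the reference was not well above background, so the fold is given as a bound. It is a mean over the 2 arrays, so a single array can lie below it. The sphere signal was set against the reference's own signal or the dimmest green signal called well above background, whichever was higher. Large bounds were found for Mal2, a membrane trafficking protein (at least 9.02-fold higher), Cxcl13, a B cell chemokine (at least 8.63-fold), Tfpi2, a protease inhibitor (at least 7.15-fold), Rasd1 (at least 6.55-fold), Plek2 (at least 5.22-fold), Bace2 (at least 5.04-fold) and Upk1b, a urothelial tetraspanin (at least 4.71-fold). Rasd1, whose bound equals the fold of its mean ratio, stood at 3.47 and 1.95. Bace2 stood at 3.46 and 1.33, and array 2 alone did not pass. For both genes, and for Plek2 and Upk1b, array 2 lay below the bound, and for Tfpi2 array 1 did.

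The DAPT arrays used the same reference and dyes, and several of these genes had other ratios there. Mmp7 stood at 0.82 and 0.48, Cyp2f2 at 0.66 and 1.27 and Ctla2a at 2.70 and 2.75. Mgp stood at 2.42 and 2.47, Clu at 4.07 and 4.18 and Krt19 at 4.47 and 4.61, also below their vehicle values. Of the genes given as bounds, Cxcl13 stood at 0.24 and 0.33 and Tfpi2 at 1.28 and 0.58, lower than on the vehicle arrays, and Mal2 at 5.25 and 5.07, higher. Krt5 stood at 4.67 and 5.17. These are examples given side by side, with no test of the difference.

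**Figure D4:**
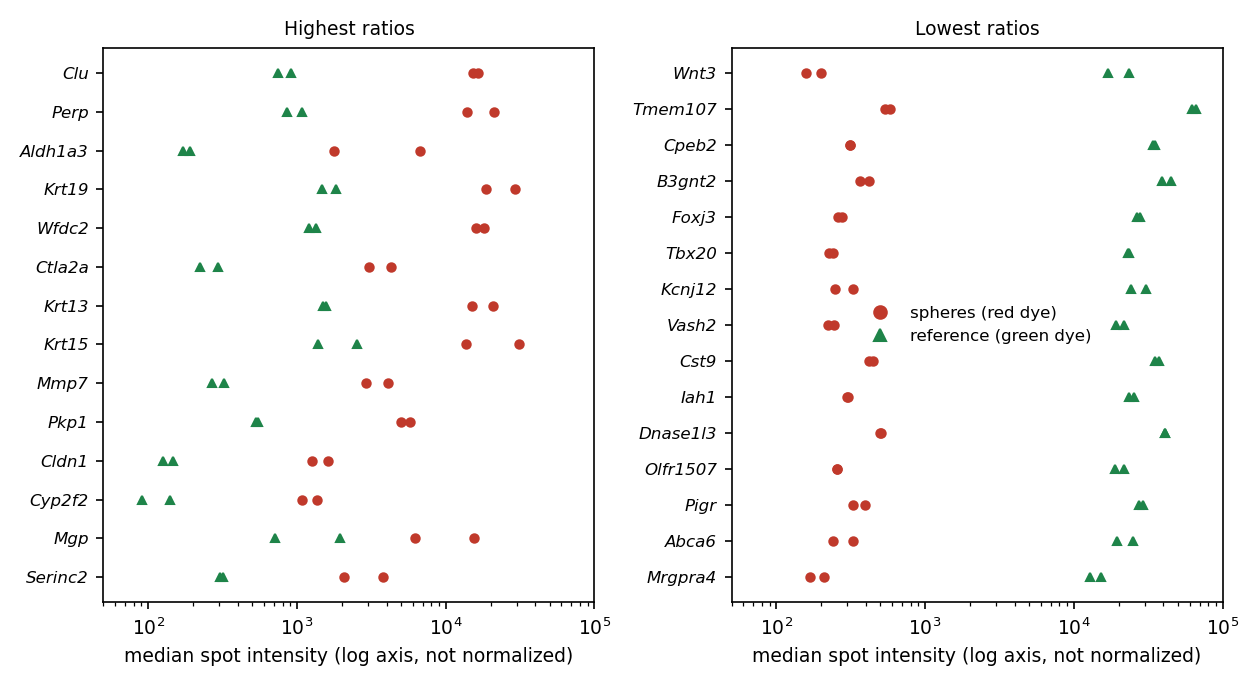
Spot intensity before normalization (log axis) of 14 named genes with the highest ratios (left) and the 15 with the lowest (right), red circles for the spheres and green triangles for the reference, 2 arrays each. The spheres read 1086 to 31313 units for the highest genes and 157 to 584 for the lowest, for which the reference read 12933 to 66504.

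Genes far below the reference were fewer under the main normalization. On both sides most of the extreme named genes had a single kept probe, since another was kept for 2 of the 15 highest. By the same rule the 15 lowest named genes ran from -5.04 to -4.40: Wnt3, Tmem107, Cpeb2, B3gnt2, Foxj3, Tbx20, Kcnj12, Vash2, Cst9, Iah1, Dnase1l3, Olfr1507, Pigr, Abca6 and Mrgpra4. Pigr is the only one of them in any of the 30 lists. They read 12933 to 66504 units in the reference and 157 to 584 in the spheres. Of these genes 5 had another kept probe, and none of those probes showed the difference. The other probe of B3gnt2 gave 1.75, that of Foxj3 0.28, that of Wnt3 0.27, that of Tbx20 -0.21 and that of Vash2 -0.50. The DAPT arrays, with the same reference, gave -5.75 to -3.94 for the same 15 probes.

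The disagreement between probes held over the lower side as a whole and not over the higher side. Of the 381 lower genes, 80 had other kept probes, 104 in all, of which 66 had the same sign and 5 passed 1.47, with a median of -0.18 against -2.05 for the brightest probes. Of the 1088 higher genes, 305 had other kept probes, 378 in all, of which 350 had the same sign and 201 passed 1.47, with a median of 1.52 against 1.87. All kept probes passed for 158 of the 305 higher genes (51.8%) and for 4 of the 80 lower ones (5.0%). Unnamed probes made up 49.6% of the lower calls, 19.5% of the higher and 41.1% of all genes tested. The median green spot read 3188 units for the lower genes, 644 for the higher and 497 for all, and the cause of the disagreement between probes was not tested.

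**Figure D5:**
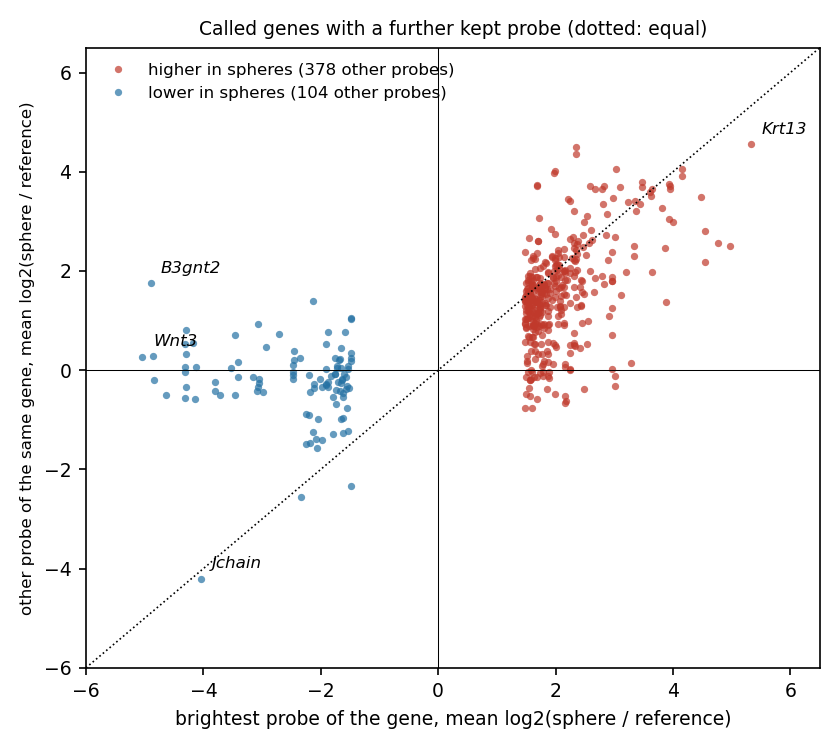
Mean log2 ratio of each other kept probe (y axis) against that of the brightest probe of the same gene (x axis), for genes called higher (378 other probes, red) and lower (104 other probes, blue). Red points spread along the dotted line of equality, whereas most blue points lie near 0 whatever the brightest probe shows, with Jchain, at -4.03 and -4.20, on the line.

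In 4 lower genes all kept probes passed, and the values are the means of their 2 probes. They were Jchain, the joining chain of secreted IgA and IgM (-4.03 and -4.20), and Chrac1, a histone-fold protein of chromatin remodelling (-2.33 and -2.55). The others were Ero1a, an oxidase of the endoplasmic reticulum (-2.06 and -1.58), and Igfbp4, which binds insulin-like growth factors (-1.48 and -2.34). The Igfbp4 probe used for the call stood at -2.17 and -0.78, short of 2-fold on array 2. In 30 lower genes the spheres were not well above background on either array. Their bounds are means over the 2 arrays as well, and a single array can lie below them. For the 8 genes named next the bound equals the fold of the mean ratio. The largest bounds among those with a name were for Fam71b (at least 7.32-fold lower), Fabp6, the ileal bile acid binding protein (at least 5.64-fold), Sh2d1a, a T and NK cell adaptor (at least 3.78-fold), Vtn, the plasma protein vitronectin (at least 3.76-fold), Pcdh15, a hair cell cadherin (at least 3.36-fold), Samt4 (at least 3.26-fold), Olfr1338 (at least 3.24-fold) and Tshr, the thyrotropin receptor (at least 3.06-fold). Of these 8, Pcdh15 (-1.47) and Olfr1338 (-1.65) missed the threshold without replicate 1, and Samt4 (-1.58) and Tshr (-1.41) without replicate 2, and the other Tshr probe gave -0.55.

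Markers of other cell types that a sorted prostate sample could hold were at or below the reference for the most part. Of 19 tested leukocyte and myeloid genes 0 were higher and 5 lower, with a median of -0.72. The lower ones were Laptm5, a lysosomal protein of blood cells (-2.05 ± 0.18), Coro1a (-1.79 ± 0.55), Tyrobp (-1.67 ± 0.45), Ctss, cathepsin S (-1.64 ± 0.40), and Ptprc, the pan-leukocyte antigen CD45 (-1.55 ± 0.45). Without replicate 1 Coro1a (-1.39), Tyrobp (-1.35), Ctss (-1.35) and Ptprc (-1.23) did not pass. Other probes gave -0.99 for Laptm5, -1.28 for Coro1a and -0.32 and -0.77 for Ptprc, below 0 but short of the threshold. Of 15 lymphoid genes, 1 was higher, Blnk (1.50 ± 0.11), an adaptor of B cells that missed the threshold with either array left out (1.58 and 1.42), and 1 was lower, Cd79b (-1.56 ± 0.50), which missed it without replicate 1 (-1.21). Of these 19 leukocyte genes 16 were detected in the spheres on both arrays, so a ratio below the reference does not mean that no message was seen.

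Stromal markers were mixed. Of 21 tested fibroblast genes 5 were lower and 1 higher, with a median of -0.43. The lower ones were Col6a1 (-2.69 and -2.12), Col3a1 (-2.18 ± 0.42), Thy1 (-2.08 ± 0.31), Vim, the mesenchymal filament vimentin (-2.19 and -1.73), and Col6a2 (-1.96 ± 0.50), which missed the threshold without replicate 1 (-1.61). The other probe of Col3a1 gave -1.469 and that of Thy1 -1.39, both just short of the threshold. Postn, the matricellular protein periostin, was the higher one at 2.27 and 1.96, while Col1a1 stood at -0.16 ± 0.48 and Dcn at 0.23 ± 0.42. Of 13 genes of a mesenchymal transition list, 0 were higher and 2 lower, Vim and Zeb2 (-1.87 ± 0.39), with a median of -0.51. The other probes of Zeb2 gave -0.33 and -0.23, and without replicate 2 its value was -1.60, under the threshold.

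Of 11 tested smooth muscle genes 3 were higher and 0 lower, with a median of 0.64: Acta2 (1.99 and 2.32), Actg2 (2.05 ± 0.19) and Tpm2 (1.59 ± 0.24). Median centring put all 3 below the threshold of that fit (1.50 for Acta2, 1.42 for Actg2). Tpm2 lost its call without replicate 2 (1.43), and the other probes of Acta2 gave 0.07 and -0.66. The defining smooth muscle genes Myh11 (1.19 ± 0.38), Cnn1 (-0.75 ± 0.14) and Des (-0.70 ± 0.22) were not called. Of 10 endothelial genes 1 was lower, Emcn (-1.86 ± 0.18), and 0 higher, with a median of -0.61, and Pecam1 stood at -0.32 ± 0.12. For so few endothelial genes that count is near the 5.63% called over all genes. How far cells of these types, or expression of their genes by epithelial cells, set these values was not tested.

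Neuroendocrine cells are the rare further cell type of the prostate epithelium. None of their 8 tested markers was called, with a median of -0.74. Over all genes 5.63% were called, so the counts in lists as small as those of this paragraph are near that share. Chga, chromogranin A, stood at -0.74 ± 0.05 and Syp, synaptophysin, at 0.01 ± 0.42. Of 11 genes of urothelium and seminal vesicle, tissues that border the prostate, 1 was higher, Upk1b, and 0 lower, with a median of -0.17. The other uroplakins tested, Upk1a (-0.14 ± 0.16), Upk2 (-0.27 ± 0.47), Upk3a (-0.17 ± 0.10) and Upk3b (-0.67 ± 0.28), were not called. Upk1b thus stood alone among the uroplakins.

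For lists of tissues other than prostate, the 5.63% called over all genes is the background. None of 12 hepatocyte genes was called, with a median of -0.12, and 5 of them were not well above background in the spheres. None of 13 pluripotency and germ cell genes was called either (median -0.45). Of 16 imprinted and oncofetal genes 1 was lower, Dlk1, at -2.45 and -1.04, which lost its call without replicate 1, and the median was -0.22. Of 9 erythroid and megakaryocyte genes 1 was lower, the platelet chemokine Pf4 (-2.22 ± 0.11), with a median of 0.03. Of 14 neural genes, with a median of -0.13, 1 was higher, Map2, and 1 lower, Syt1 (-3.80 ± 0.01). The other Syt1 probes gave -0.25 and -0.42. For Map2 the reference was not well above background, so its mean was at least 3.31-fold higher. That bound equals the fold of its mean ratio and array 1 lay below it. Without replicate 2 Map2 was under the threshold. Of 13 muscle and fat genes 1 was higher, Tnnt2, a cardiac troponin (2.33 ± 0.88), and 0 lower, with a median of -0.34.

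The reference was also the yardstick for growth and protein synthesis. None of 29 tested cell cycle genes was called, and their median was -0.53, with Top2a at -0.73 ± 0.18, Cdk1 at -0.02 ± 0.21 and Pcna at 0.09 ± 0.15. Over all genes 5.63% were called, so no call among 29 is near that share. All but 1 of the 29 were detected in the spheres on both arrays. Of 18 ribosomal protein genes 4 were higher and 0 lower, with a median of 0.93: Rps2 (1.71 ± 0.06), Rplp0 (1.60 ± 0.05), Rplp1 (1.58 ± 0.04) and Rps12 (1.47 ± 0.25). None of these 4 passed under median centring, and all 4 had a mean below 0 with no normalization. The other probes of Rps2 and Rplp0 gave 1.15 and 1.05. Rplp1 missed the threshold with either array left out (1.56 and 1.61), Rplp0 without replicate 2 (1.57) and Rps12 without replicate 1 (1.29).

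The Notch pathway, in which γ-secretase frees the receptor's inner part after a ligand binds, is the one the series set out to inhibit. Of 19 tested genes in the untreated spheres, 2 were higher and 0 lower, with a median of 0.16, while 4.17% were called higher and 1.46% lower over all genes. Jag2, a ligand, stood at 2.50 and 1.55, and Ncstn, the γ-secretase subunit nicastrin, at 1.72 and 1.91. Both were below the threshold of the fit under median centring (1.64 and 1.23), and Jag2 also lost its call without replicate 1. Among the receptors Notch1 stood at 1.00 ± 0.10, Notch3 at 0.62 ± 0.12, Notch2 at -0.12 ± 0.08 and Notch4 at 0.01 ± 0.19, none of them called. The ligand Jag1 stood at 0.37 ± 0.12, and the targets Hes1 at 0.38 ± 0.43, Hey1 at 0.05 ± 0.05 and Nrarp at 0.78 ± 0.65. The genes that define the pathway thus lay near the reference, Notch1 being 2.00-fold above it, and 18 of the 19 were detected in the spheres on both arrays.

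Of 4 sex-linked genes none was called (median -0.12). Xist, the RNA of the inactive X chromosome in females, was not well above background in the spheres, and the Y-linked Uty and Kdm5d were well above it on both arrays and Ddx3y on 1. The prostate is a male tissue.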

How the data were processed

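RNA from vehicle-treated prostate basal spheres was measured on 2 two-colour Agilent arrays, which with the 2 DAPT arrays lay on 1 slide and in 1 scan. Per the file headers, Agilent Feature Extraction 10.7.3.1 gave a median pixel intensity, without normalization, for each spot and its surroundings in red and in green, and a processed intensity corrected for background and dye. The deposited log10 values of red over green, per the file headers, served only to find the direction of the authors' value table. That deposited table holds log2 values whose normalization is not stated in the labels or headers. Its column medians were 0.00072, -0.0106, -0.015 and -0.0115, its columns correlated at 0.869 to 0.902 with the scanner ratios, and for the vehicle arrays at 0.99965 and 0.99956 with the ratios computed here. The scanner software's marks (well above background, saturated, uneven spot, outlier spot) are other deposited values, and 0 spots were saturated.

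Background was corrected with limma 3.58.1 in R 4.3.3 (normexp, offset 50, median signals), then loess per array, in which control spots had weight 0. Spots of a probe were averaged, and a gene was represented by its brightest kept probe. The 24375 probes with a RefSeq accession in the GRCm38.p6 table were named, 16799 were not, and no coordinates were used. The fit was lmFit with an intercept on the 2 vehicle arrays and treat against 2-fold, two-sided, with Benjamini-Hochberg adjustment over 26114 genes. The residual df was 1, and the empirical prior made every gene's variance the same. The 2 arrays are the only replicates, and their number limits the precision. A test against a reference that is 1 RNA pool leaves out the spread of that pool.

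Where a channel was not well above background on either array, the fold is a bound: the bright channel's mean (loess, then Aquantile) divided by the dim channel's own signal or the lowest signal called well above background, whichever is higher, so that dye bias can enter it. Genes were named by rule: the 4 markers, the 15 highest and 15 lowest ratios with both channels above background, the 8 largest bounds in each direction, and up to 5 called members of each of 30 gene lists with the members that define it. Some genes that the rule names are not reported here. The members and lists were chosen with earlier results of these data known, so no list is independent evidence. Gene families, and further list members named to show which did not pass, were chosen after their values were seen. The script was tested on simulated data. The 18 alternatives covered background correction, scaling, filters, probe choice, the fit and each array left out. The fits with a vehicle array left out, and one on all 4 arrays, draw their spread from the DAPT arrays too.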

Additional observations from a re-analysis of the deposited data

How the results depend on the processing

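Against the 1088 genes higher and 381 lower in spheres, plain background subtraction gave 610 higher. Leaving out spots marked as uneven or as outliers gave 613 higher. Median centring gave 464 higher and 1141 lower, and no normalization gave 137 and 14645. A 4-fold minimum gave 259 and 137, and a test against no difference gave 6245 and 7011. The scanner software's processed signals gave 897 lower. Leaving out 1 vehicle array, with the spread taken from the DAPT arrays, gave 869 to 882 higher and 288 to 362 lower. Krt5, Krt14 and Krt8 kept their call in each alternative that tested them. Trp63 passed against no difference (1.00), with marked spots left out (2.05) and with the mean of its probes (1.53), and had the opposite sign with no normalization (-0.39). The cause of these shifts was not tested, apart from the minimum fold, which is a change of the question, and the marked spots, whose removal left 16976 genes to test.

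Of 120 named values, 109 kept their sign in every alternative, and 86 of the 119 called ones kept their call in all but no normalization and the 4-fold minimum. With no normalization the sign turned for Rps12 (-0.38), Blnk (-0.32), Erbb3 (-0.27), Rplp1 (-0.26), Rplp0 (-0.24), Tpm2 (-0.21), Rps2 (-0.14), Spint1 (-0.12) and Lcn2 (-0.02), and with marked spots left out it turned for Acta2 (-0.75). An alternative added after the data were seen, a spread that follows brightness, gave 1107 higher and 400 lower. No paired analysis was possible because the ratio already pairs the 2 RNAs within each array, and a further block by replicate number would leave no residual degrees of freedom on 2 arrays. The dim red channel limits what can be called absent, since it detected 65% and 63.7% of the probe spots. On DAPT array 2, 13 spots with debris were left out.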

Other observations

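Members of 3 further gene families were high in the untreated spheres beside members that were not called. The families were looked at after their values had been seen and carry no test as families. Over all genes 4.17% were called higher and 1.46% lower. Clade B serpins, collagens and olfactory receptors, counted in the same way, had smaller shares called higher than these 3 families. Of 21 clade B serpins 2 were higher and 0 lower, and of 37 collagens 2 were higher and 3 lower. Of 700 olfactory receptors 1 was higher and 11 were lower. Of 12 tested annexins 7 were higher and 0 lower, with a median of 1.56 and Anxa8 (4.12 ± 0.06) and Anxa1 (3.88 ± 0.32) the highest. Of 14 S100 genes 5 were higher and 0 lower, led by S100a16 (4.41 ± 0.03) and S100a14 (4.14 ± 0.28). Of 21 claudins 6 were higher and 0 lower, with a median of 0.03. Besides those named above they were Cldn6 (3.35 ± 0.17) and Cldn23 (3.15 ± 0.01). The peptide gene Calcb stood at 5.12 ± 0.05, with the reference well above background on 1 array, whereas its relative Calca stood at -0.74 ± 0.09.

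Genes of B cells and antigen presentation, looked at after their values had been seen, lay on both sides of the reference. Next to Jchain, Cd74, the invariant chain (-2.33 ± 0.57), Mzb1, a plasma cell chaperone (-2.18 ± 0.40), and Pou2af1, a B cell coactivator (-2.11 ± 0.63), were lower. H2-Ab1, a class II histocompatibility chain, was higher on all of its probes (2.02, 2.37 and 2.54), as was H2-K1, a class I chain (1.54, 1.83 and 2.16), while the class II chain H2-Aa was not called (-0.12 and -0.05).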
